A study of Mus musculus with 5 samples.

Results

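The genes described here are 40 genes of the unfolded protein response and of protein folding in the endoplasmic reticulum (ER). They were chosen by symbol from textbook roles: chaperones, disulfide isomerases, translocation subunits, factors of ER-associated degradation, stress sensors and stress targets. All 40 were found among the 16992 symbols common to the 5 libraries, and all 40 passed the filter on low values that 11769 genes passed. RNA was sequenced from 2 populations of pancreas cells, taken fresh from the sorter, of C57BL/6 mice aged 2 to 4 months: CD133(high)CD71(low) cells in 3 libraries and CD133(positive)CD71(negative) cells in 2 libraries. The animals carry no named allele and received no treatment named in the labels. The sort used the surface proteins CD133 (gene Prom1) and CD71 (the transferrin receptor, gene Tfrc). Another label field calls the CD133(high)CD71(low) cells CD71-plus. In each group libraries 1 and 2 are numbered by the labels. One further CD133(high)CD71(low) library has no number and is here library 3.

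Levels are in RPKM, read counts divided by transcript length and by library depth. Depth inferred from the values was 31.7, 30.7 and 41.7 M reads (M, 1e6) in the CD133(high)CD71(low) libraries and 25.4 and 19.7 M reads in the CD133(positive)CD71(negative) libraries. Prom1 measured 72.8, 74.7 and 133 RPKM in CD133(high)CD71(low) cells, against 45.8 and 48.8 RPKM in CD133(positive)CD71(negative) cells. Tfrc measured 5.34, 6.84 and 12.2 RPKM in CD133(high)CD71(low) cells, against 4.00 and 4.36 RPKM in CD133(positive)CD71(negative) cells. Neither passed with all libraries (limma adjusted p = 0.0909 and 0.151), and both were higher without library 3 (limma adjusted p = 0.000208 and 0.0112). Library 3 stood apart. Its table holds 22522 symbols in place of 18618, and its Pearson r across genes with libraries 1 and 2 of its group was 0.9575 and 0.9615, against 0.9962 between those 2. Each comparison is therefore given with and without it. The labels do not say that libraries came from separate mice or sorts. The p-values therefore rest on differences between libraries that may be technical.

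Secreted and membrane proteins enter the ER through the Sec61 channel, are folded there by chaperones of the Hsp70, Hsp90 and lectin families, and are cross-linked by disulfide isomerases. Proteins that fail to fold are sent back to the cytosol and degraded. When misfolded protein builds up, the membrane sensors respond: Ern1 (IRE1) splices the Xbp1 mRNA, Eif2ak3 (PERK) slows translation and so favours that of Atf4, and Atf6 is cut to release a transcription factor. The acinar cells of the pancreas, which secrete digestive enzymes, are known for a dense ER and a high demand on this machinery. The tables hold 1 value per gene, so splicing of Xbp1, phosphorylation and cleavage were not measured.

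How many ER folding and stress genes differed between the sorted populations depended on library 3 and on scaling. With all 5 libraries, 0 of the 40 were higher and 0 were lower (limma adjusted p under 0.05) in the CD133(high)CD71(low) population, where 6.25% of all genes tested were higher and 7.22% lower. At an unadjusted p under 0.05 in limma there were 3 of the 40 (Eif2ak3, Ddit3 and Pdia4, all higher), against 36.7% of all genes. Their median log2 fold change was 0.11, and that of all genes tested was 0.31. Fold changes compare log2(RPKM + 1), CD133(high)CD71(low) over CD133(positive)CD71(negative), and so understate the changes of genes with low levels. The estimates lay between -0.64 for Derl3 and 0.71 for Canx. Each library holds RNA of many cells, so fewer cells of a type and less RNA per cell cannot be told apart.

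Without library 3, 12 of the 40 genes passed. In the 4 numbered libraries 9 genes were higher in CD133(high)CD71(low) cells, where 40.9% of all genes were higher, and 3 were lower, where 12.2% were. The higher genes were Eif2ak3, Ern1, Atf4, Ddit3, Trib3, Calr, Pdia3, Pdia4 and Sec61a1. The lower genes were Derl3, Ero1lb and Edem1. The fold changes of all 40 ran from -0.29 to 0.55, with a median of 0.09 against 0.20 for all genes. Both counts depended on scaling. Median-of-ratios scaling moved the median of all genes to 0.00 and that of the 40 to -0.14. With it 2 of the 40 were higher, where 12.3% of all genes were, and 12 were lower, where 18.1% were. Under both scalings 5 genes passed in these 4 libraries: Ddit3 and Trib3 were higher, and Derl3, Edem1 and Ero1lb were lower. The share of all genes that passed under both was not counted, so these 5 are not shown to stand out.

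**Figure D1:**
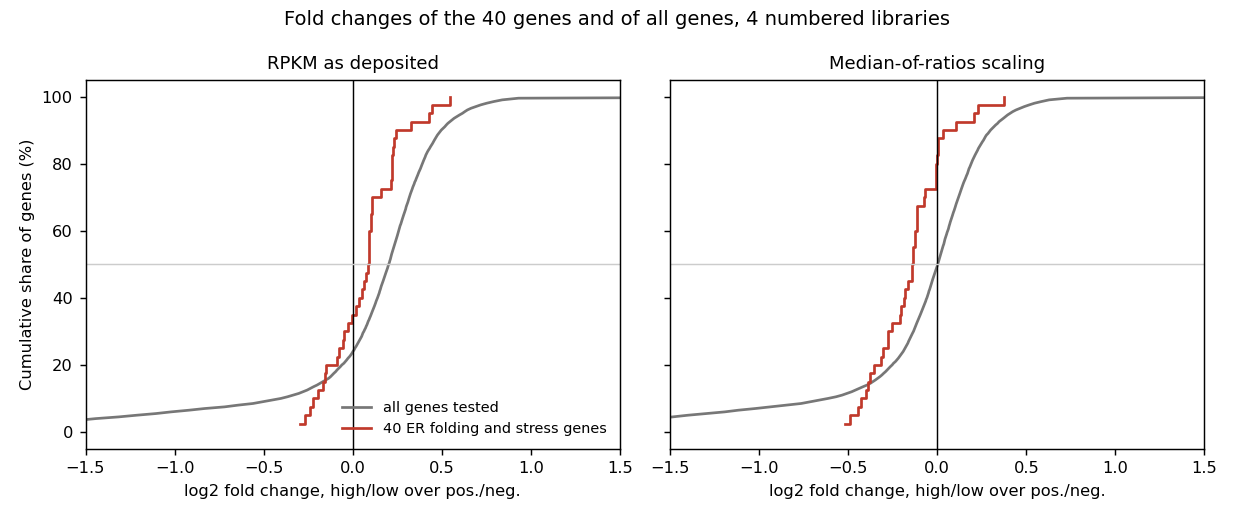
Cumulative share of genes (vertical axis, percent) at or below a log2 fold change, CD133(high)CD71(low) over CD133(positive)CD71(negative) (horizontal axis), in the 4 numbered libraries, for the 40 ER folding and stress genes and for all genes tested; RPKM as deposited on the left and median-of-ratios scaling on the right. The curve of the 40 genes crosses 50% at 0.09 and -0.14, that of all genes at 0.20 and 0.00, and the 40 genes lie between -0.29 and 0.55 on the left.

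Non-overlapping groups were counted over all 5 libraries. Of the 40 genes, 15 lay higher in every CD133(high)CD71(low) library than in both CD133(positive)CD71(negative) libraries, against 58.2% of all genes tested. Another 6 lay lower in every CD133(high)CD71(low) library, against 12% of all genes. The 40 genes summed to 1990, 1910 and 2344 RPKM in CD133(high)CD71(low) cells, against 1888 and 1777 RPKM in CD133(positive)CD71(negative) cells.

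**Figure D2:**
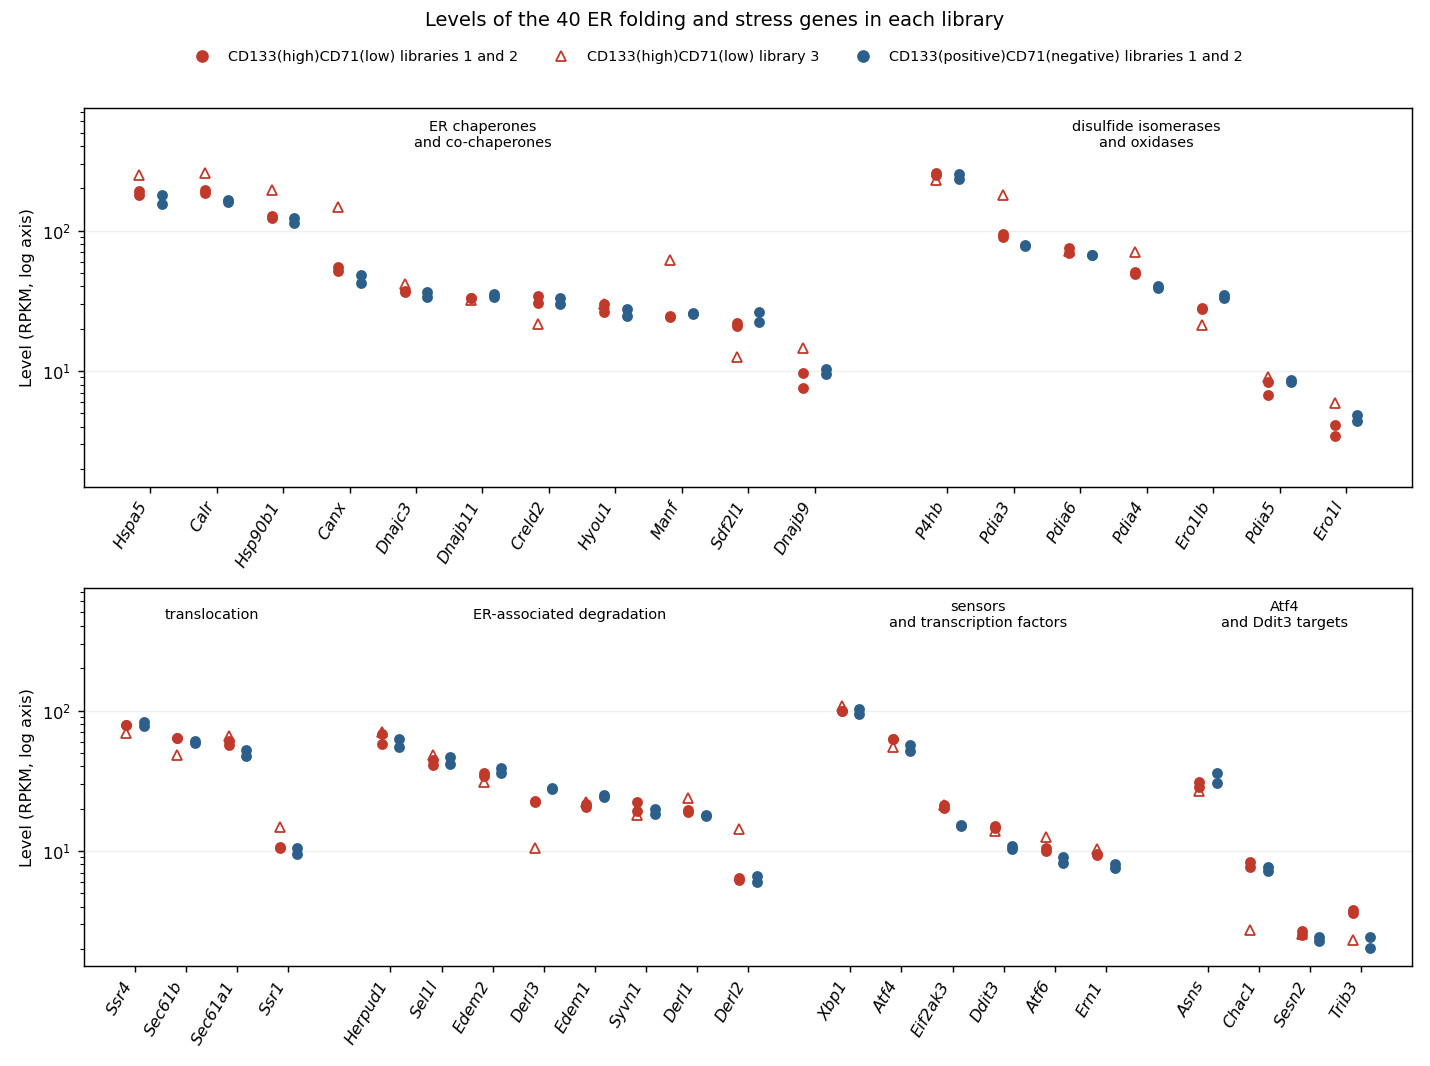
Level of each of the 40 genes in RPKM (log axis) by role, with CD133(high)CD71(low) libraries 1 and 2 as filled red circles, library 3 of that group as open triangles and the CD133(positive)CD71(negative) libraries as blue circles. The open triangle lies far from the filled symbols for some genes, such as Canx at 148 RPKM, Manf at 61.7 RPKM and Derl3 at 10.5 RPKM.

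Of the 11 chaperones and co-chaperones 0 passed with all libraries, where 6.25% of all genes were higher and 7.22% lower. Without library 3 Calr alone passed, where 40.9% of all genes were higher and 12.2% lower. The median log2 fold change of the 11 was 0.13 with all libraries. Hspa5 encodes BiP, the Hsp70 chaperone of the ER lumen. It measured 192, 180 and 249 RPKM in CD133(high)CD71(low) cells, against 179 and 155 RPKM in CD133(positive)CD71(negative) cells. Its CD133(high)CD71(low) libraries all lay above the CD133(positive)CD71(negative) libraries, by less than 1 RPKM at the nearest. The log2 fold change was 0.30 (SE 0.19, limma adjusted p = 0.265), and 0.16 with a 95% interval of -0.04 to 0.36 without library 3. Calr, the soluble lectin chaperone calreticulin, measured 196, 184 and 259 RPKM in CD133(high)CD71(low) cells, against 165 and 159 RPKM in CD133(positive)CD71(negative) cells. The groups did not overlap. Without library 3 Calr was higher (log2 fold change 0.23, SE 0.08, limma adjusted p = 0.0334), but with median-of-ratios scaling of those libraries its estimate was -0.00. Canx, the membrane-bound lectin chaperone calnexin, measured 51.2, 54.8 and 148 RPKM in CD133(high)CD71(low) cells, against 42.7 and 48.3 RPKM in CD133(positive)CD71(negative) cells. The groups did not overlap, and library 3 lay far above the rest. The log2 fold change was 0.71 with it and 0.22 without it, and neither passed. Hsp90b1, the Hsp90 chaperone of the ER, measured 128, 124 and 194 RPKM in CD133(high)CD71(low) cells, against 123 and 113 RPKM in CD133(positive)CD71(negative) cells, and also had its top value in library 3.

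The partners of BiP showed no call in either direction as deposited. Hyou1, which exchanges nucleotide on BiP, measured 29.9, 26.3 and 29.8 RPKM in CD133(high)CD71(low) cells, against 27.4 and 24.8 RPKM in CD133(positive)CD71(negative) cells, and the groups overlapped. The J-domain co-chaperone Dnajb11 measured 33.3, 33.1 and 31.8 RPKM in CD133(high)CD71(low) cells, against 33.6 and 35.3 RPKM in CD133(positive)CD71(negative) cells. The CD133(high)CD71(low) libraries lay just below, with a log2 fold change of -0.07 and a 95% interval of -0.34 to 0.20. Sdf2l1, which acts in a complex with BiP and its J-domain partners, measured 22.0, 21.1 and 12.6 RPKM in CD133(high)CD71(low) cells, against 26.4 and 22.4 RPKM in CD133(positive)CD71(negative) cells. It lay lower in every CD133(high)CD71(low) library, without passing (limma adjusted p = 0.271). Dnajc3, a J-domain co-chaperone that also restrains PERK, was at 36.3 to 41.8 RPKM in CD133(high)CD71(low) cells and at 33.8 and 36.5 RPKM in CD133(positive)CD71(negative) cells. Dnajb9, a J-domain co-chaperone that also acts on the IRE1 sensor, was at 7.56 to 14.6 RPKM in CD133(high)CD71(low) cells and at 9.52 and 10.4 RPKM in CD133(positive)CD71(negative) cells. Creld2, a stress-induced gene, was at 21.7 to 34.0 RPKM in CD133(high)CD71(low) cells and at 30.0 and 33.1 RPKM in CD133(positive)CD71(negative) cells. All of these overlapped between groups. So did the groups of Manf, encoding a stress-induced protein that is kept in the ER or secreted. It measured 24.5, 24.0 and 61.7 RPKM in CD133(high)CD71(low) cells, against 26.0 and 25.4 RPKM in CD133(positive)CD71(negative) cells. With median-of-ratios scaling in the 4 numbered libraries Dnajb11, Dnajb9, Sdf2l1 and Manf were lower.

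Many of these genes are known to be switched on through a short promoter element, the ER stress response element (ERSE), in which CCAAT and CCACG stand 9 bases apart. RefSeq promoters of GRCm38.p6, the assembly of mm10, were searched from 250 bases before to 50 bases after each start site, on both strands. Of the 40 genes, 35 had an entry. Hyou1, Manf, Sec61a1, Derl1 and Atf6 had none. An ERSE stood in the promoters of 10 of the 35: Hspa5, Hsp90b1, Calr, Canx, Dnajc3, Creld2, Pdia6, Ero1lb, Syvn1 and Derl3. Over the table as a whole it stood in 39 of 32851 promoters (0.119%), and in those of 37 of 27025 genes. The variant ERSE-II, ATTGG and CCACG 1 base apart, stood in 2 of the 35 (Dnajb11 and Herpud1) and in 0.0444% of all 27025 genes. The element UPRE, TGACGTGG, was in 0 of the 35 and in 0.714% of all 27025 genes. The shorter CCACG, which lies within ERSE and ERSE-II and, on the other strand, within UPRE, was in 28 of the 35 and in 35.5% of all 27025 genes. A match is a run of letters and not a measured binding site.

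The promoters of Hspa5, which did not pass, and of Derl3, which was lower without library 3, are shown over 250 bases up to the start site (RefSeq, GRCm38.p6), to set side by side 2 genes that hold the same element. Capitals mark the fixed letters of the element, and in Derl3 it reads on the opposite strand.
Hspa5 promoter (chr2:34771840-34772089, plus strand): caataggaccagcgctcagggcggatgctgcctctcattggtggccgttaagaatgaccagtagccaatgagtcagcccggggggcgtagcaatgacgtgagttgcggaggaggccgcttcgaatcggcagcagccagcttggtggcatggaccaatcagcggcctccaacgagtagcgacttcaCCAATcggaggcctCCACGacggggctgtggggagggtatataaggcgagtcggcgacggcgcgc
Derl3 promoter (chr10:75893148-75893397, plus strand): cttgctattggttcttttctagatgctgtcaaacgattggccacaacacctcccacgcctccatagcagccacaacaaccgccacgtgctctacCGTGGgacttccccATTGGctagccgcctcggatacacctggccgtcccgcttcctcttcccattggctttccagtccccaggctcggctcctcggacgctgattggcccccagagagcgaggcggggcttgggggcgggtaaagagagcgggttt

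Shorter stretches (GRCm38.p6) show the element in other chaperone and oxidase genes, and ERSE-II in Herpud1, with 10 bases on either side. Each is read along the strand on which the element runs.
Calr (chr8:84847065-84847103, plus strand): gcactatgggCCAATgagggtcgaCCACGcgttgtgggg
Canx (chr11:50325790-50325828, minus strand): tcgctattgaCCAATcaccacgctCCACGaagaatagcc
Creld2 (chr15:88819510-88819548, minus strand): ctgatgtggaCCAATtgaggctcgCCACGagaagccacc
Ero1lb (chr13:12565672-12565710, minus strand): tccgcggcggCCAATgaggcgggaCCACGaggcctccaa
Herpud1 (chr8:94386367-94386397, plus strand): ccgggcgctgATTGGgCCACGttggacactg

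In the 4 numbered libraries the 10 genes with an ERSE ran from a log2 fold change of -0.29 for Derl3 to 0.23 for Calr, with a median of 0.10. As deposited 8 of the 10 estimates were above 0, where 24% of all genes tested lay at or below 0.00. Calr was higher, where 40.9% of all genes were. Derl3 and Ero1lb were lower, where 12.2% of all genes were, and the others did not pass. After median-of-ratios scaling of these libraries all 10 estimates were below 0, with a median of -0.13, where the median of all genes was 0.00. Calr at -0.00 and Canx at -0.01 were close to 0. The median of the 40 genes was -0.14 in this fit, so the shift was not particular to genes with an ERSE. Of the 10, Derl3 and Ero1lb passed, both lower, as were 18.1% of all genes.

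Of the 7 isomerases and oxidases, Pdia3 and Pdia4 were higher without library 3, where 40.9% of all genes were. Ero1lb was lower in that fit, where 12.2% of all genes were. Isomerases form and rearrange disulfide bonds, and P4hb was the most abundant of the 40 genes on the RPKM scale in both groups' libraries 1 and 2. It measured 258, 248 and 231 RPKM in CD133(high)CD71(low) cells, against 255 and 234 RPKM in CD133(positive)CD71(negative) cells. The groups overlapped, and the log2 fold change was 0.01 with a 95% interval of -0.33 to 0.34. Pdia3, the isomerase that works with calnexin and calreticulin, measured 94.0, 90.4 and 178 RPKM in CD133(high)CD71(low) cells, against 79.5 and 78.2 RPKM in CD133(positive)CD71(negative) cells. Pdia4, another isomerase of the lumen, measured 50.7, 49.0 and 70.2 RPKM in CD133(high)CD71(low) cells, against 38.7 and 40.2 RPKM in CD133(positive)CD71(negative) cells. The groups of both genes did not overlap, and library 3 was the highest for each. Pdia4 missed the threshold with all libraries (log2 fold change 0.49, SE 0.19, limma adjusted p = 0.125) and passed without library 3 (0.33, SE 0.08, limma adjusted p = 0.00753). Pdia3 likewise passed only without library 3 (0.22, SE 0.08, limma adjusted p = 0.0348). After median-of-ratios scaling of the numbered libraries neither passed, and the estimates were 0.10 for Pdia4 and -0.01 for Pdia3. Pdia6 measured 75.5, 68.9 and 71.5 RPKM in CD133(high)CD71(low) cells, against 67.3 and 66.8 RPKM in CD133(positive)CD71(negative) cells, and Pdia5 was at 6.79 to 9.02 RPKM in CD133(high)CD71(low) cells and at 8.36 and 8.56 RPKM in CD133(positive)CD71(negative) cells.

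The oxidase gene Ero1lb, whose product passes oxidizing equivalents to the isomerases and is abundant in pancreas, lay lower in every CD133(high)CD71(low) library. It measured 28.0, 27.7 and 21.4 RPKM in CD133(high)CD71(low) cells, against 34.5 and 33.0 RPKM in CD133(positive)CD71(negative) cells, with no overlap. The log2 fold change was -0.39 with all libraries (SE 0.16, limma adjusted p = 0.137) and -0.27 without library 3 (SE 0.08, limma adjusted p = 0.0203), so that the call rests on leaving library 3 out. Median-of-ratios scaling of the numbered libraries gave -0.49. The widely expressed oxidase gene Ero1l measured 3.42, 4.14 and 5.87 RPKM in CD133(high)CD71(low) cells, against 4.38 and 4.88 RPKM in CD133(positive)CD71(negative) cells, and the groups overlapped. With median-of-ratios scaling of the numbered libraries Ero1l and Pdia5 were lower as well (-0.43 and -0.36).

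Of the 4 translocation genes 1 passed, without library 3. It was higher, as were 40.9% of all genes in that fit. Sec61a1, the channel subunit, measured 60.3, 57.1 and 66.2 RPKM in CD133(high)CD71(low) cells, against 52.3 and 47.6 RPKM in CD133(positive)CD71(negative) cells. The groups did not overlap. It was higher without library 3 (log2 fold change 0.23, SE 0.08, limma adjusted p = 0.0442) and had an estimate of 0.00 after median-of-ratios scaling of those libraries. Ssr4, a subunit of the translocon-associated protein complex, measured 79.2, 78.3 and 69.7 RPKM in CD133(high)CD71(low) cells, against 82.7 and 77.9 RPKM in CD133(positive)CD71(negative) cells. Sec61b measured 64.1, 63.8 and 48.2 RPKM in CD133(high)CD71(low) cells, against 61.2 and 58.9 RPKM in CD133(positive)CD71(negative) cells. Both overlapped between groups, and Ssr4 was lower after median-of-ratios scaling of the numbered libraries (-0.26). Ssr1, of the same complex as Ssr4, was at 10.4 to 14.8 RPKM in CD133(high)CD71(low) cells and 9.57 and 10.4 RPKM in CD133(positive)CD71(negative) cells.

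Of the 8 genes of ER-associated degradation, Derl3 and Edem1 were lower without library 3, where 12.2% of all genes were. In the same fit 0 of the 8 were higher, where 40.9% of all genes were. Derl3, a derlin found mainly in secretory cells, measured 22.7, 22.4 and 10.5 RPKM in CD133(high)CD71(low) cells, against 27.7 and 28.0 RPKM in CD133(positive)CD71(negative) cells. All CD133(high)CD71(low) libraries lay below, and library 3 lay farthest. The log2 fold change was -0.64 with all libraries (SE 0.34, limma adjusted p = 0.214) and -0.29 without library 3 (SE 0.08, limma adjusted p = 0.0132). Edem1, which helps trim the sugars of misfolded glycoproteins, measured 21.4, 20.4 and 22.2 RPKM in CD133(high)CD71(low) cells, against 24.8 and 24.3 RPKM in CD133(positive)CD71(negative) cells. Library 3 stood with libraries 1 and 2 here, and the groups did not overlap. The log2 fold change was -0.20 with all libraries (SE 0.11, limma adjusted p = 0.222) and -0.22 without library 3 (SE 0.08, limma adjusted p = 0.0421). With median-of-ratios scaling over all 5 libraries Edem1 alone of the 40 genes passed (log2 fold change -0.53, limma adjusted p = 0.0478). In that setting 1141 of 11785 genes were lower.

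Edem2, a relative of Edem1, measured 35.8, 34.3 and 30.9 RPKM in CD133(high)CD71(low) cells, against 38.9 and 35.9 RPKM in CD133(positive)CD71(negative) cells. It lay lower in every CD133(high)CD71(low) library, and passed in the numbered libraries after median-of-ratios scaling (-0.31). Herpud1, a stress-induced membrane partner of the degradation ligase, measured 67.8, 58.0 and 70.5 RPKM in CD133(high)CD71(low) cells, against 63.0 and 55.4 RPKM in CD133(positive)CD71(negative) cells, and the groups overlapped. The ligase gene Syvn1 and its adaptor gene Sel1l overlapped as well, at 18.1 to 22.3 and 40.6 to 48.2 RPKM in CD133(high)CD71(low) cells and at 18.4 to 19.8 and 41.6 to 46.7 RPKM in CD133(positive)CD71(negative) cells. Derl1 measured 19.7, 19.0 and 23.9 RPKM in CD133(high)CD71(low) cells, against 17.8 and 17.9 RPKM in CD133(positive)CD71(negative) cells. Derl1 and Derl2 are derlins, membrane proteins of the degradation machinery, and the groups of Derl1 did not overlap. Derl2 was at 6.20, 6.37 and 14.4 RPKM in CD133(high)CD71(low) cells, against 5.99 and 6.65 RPKM in CD133(positive)CD71(negative) cells, so that library 3 alone lay outside the range of the others.

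Of the sensors and their transcription factors all 6 had estimates above 0 with all libraries, as did 80.4% of all genes tested. In 4 of the 6 every CD133(high)CD71(low) library lay higher, against 58.2% of all genes, which is near their share. After median-of-ratios scaling over all 5 libraries their median log2 fold change was -0.01. Eif2ak3, the PERK kinase, measured 21.1, 20.4 and 21.2 RPKM in CD133(high)CD71(low) cells, against 14.9 and 15.4 RPKM in CD133(positive)CD71(negative) cells. The 3 CD133(high)CD71(low) libraries were within 1 RPKM of each other and all lay above. The log2 fold change was 0.44 with all libraries (SE 0.11, limma adjusted p = 0.0522) and 0.43 without library 3 (SE 0.08, limma adjusted p = 0.00260). Ddit3, the transcription factor CHOP that acts downstream of PERK and Atf4, measured 14.5, 14.9 and 13.8 RPKM in CD133(high)CD71(low) cells, against 10.3 and 10.8 RPKM in CD133(positive)CD71(negative) cells. The groups did not overlap. Its log2 fold change was 0.41 with all libraries (SE 0.11, limma adjusted p = 0.0665) and 0.44 without library 3 (SE 0.08, limma adjusted p = 0.00246). Among the 40 genes these had the lowest adjusted p-values in both fits, and with no filter on low values both passed with all libraries (limma adjusted p = 0.0295 for Eif2ak3 and 0.0453 for Ddit3). In that setting 958 of 16887 genes were higher. Scaled by median of ratios, the numbered libraries gave 0.23 for Ddit3 (limma adjusted p = 0.0433) and 0.21 for Eif2ak3 (limma adjusted p = 0.0534), and all 5 libraries gave 0.10 and 0.12.

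Ern1, the IRE1 sensor, measured 9.47, 9.37 and 10.3 RPKM in CD133(high)CD71(low) cells, against 7.56 and 8.05 RPKM in CD133(positive)CD71(negative) cells. Atf6 measured 10.4, 9.95 and 12.5 RPKM in CD133(high)CD71(low) cells, against 8.98 and 8.25 RPKM in CD133(positive)CD71(negative) cells. Neither gene overlapped between groups. Ern1 passed without library 3 (log2 fold change 0.24, limma adjusted p = 0.0403), Atf6 did not (0.22, limma adjusted p = 0.0644), and median-of-ratios scaling brought the estimates of those libraries to 0.03 and 0.01. Xbp1, the target of Ern1 and a factor needed by acinar cells, was far more abundant. It measured 99.7, 99.9 and 107 RPKM in CD133(high)CD71(low) cells, against 102 and 94.6 RPKM in CD133(positive)CD71(negative) cells. The groups overlapped, and the 95% interval of its log2 fold change was -0.24 to 0.35. Atf4 measured 63.0, 62.8 and 54.8 RPKM in CD133(high)CD71(low) cells, against 56.5 and 51.3 RPKM in CD133(positive)CD71(negative) cells, and the groups overlapped. It was higher without library 3 (0.22, limma adjusted p = 0.0471), with an estimate of -0.01 after median-of-ratios scaling of those libraries.

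**Figure D3:**
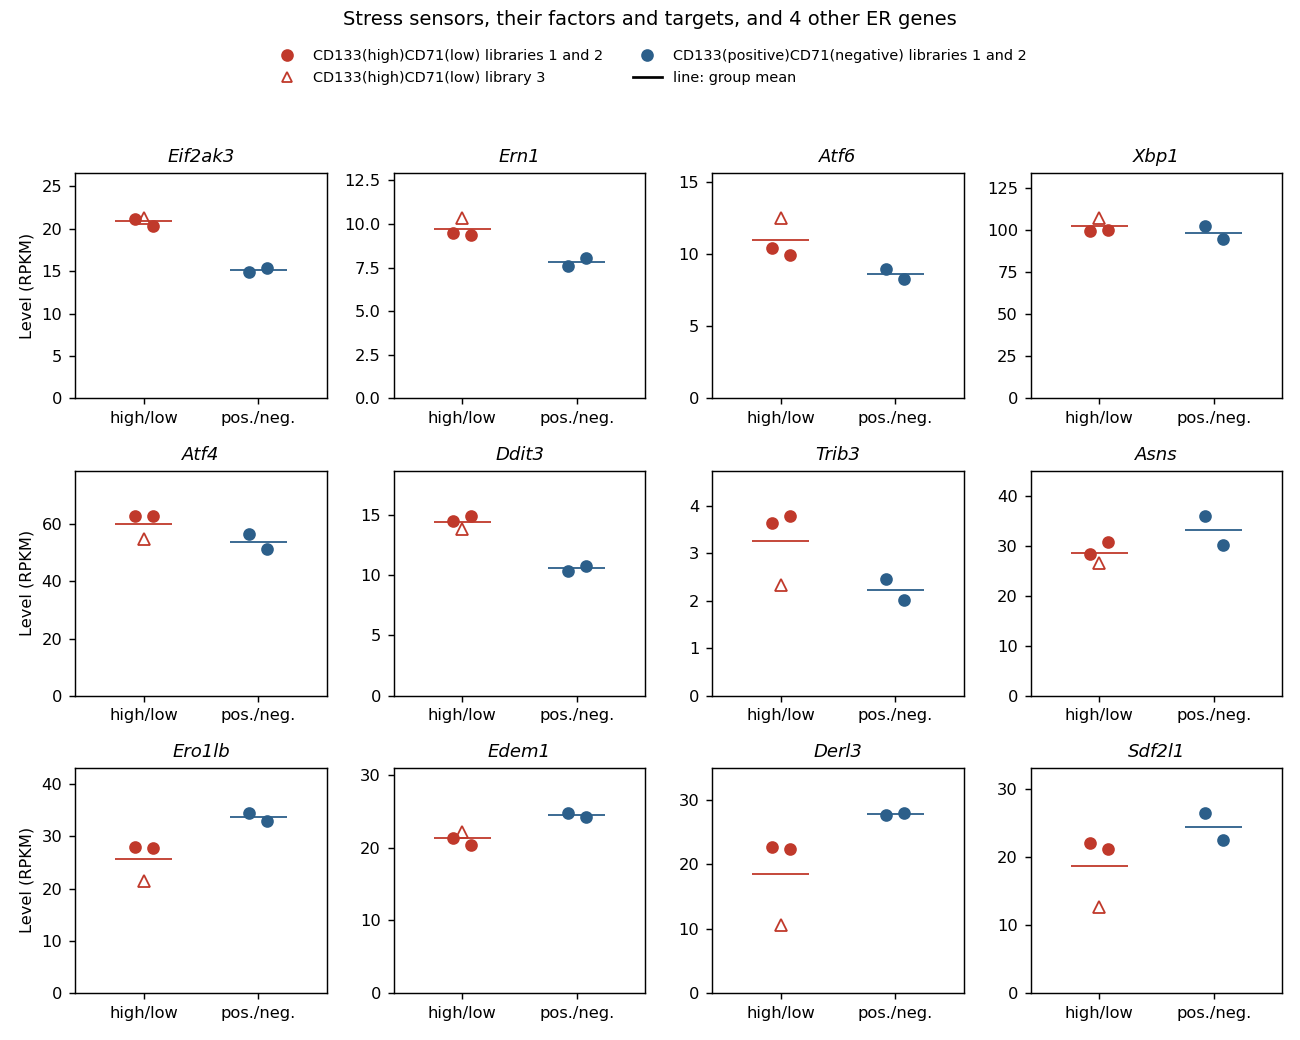
Level in RPKM (linear axes from 0) of 12 genes picked after their values were seen: the sensors, transcription factors and targets Trib3 and Asns, and Ero1lb, Edem1, Derl3 and Sdf2l1; each point is a library, with CD133(high)CD71(low) on the left and CD133(positive)CD71(negative) on the right, and lines are group means. Eif2ak3 and Ddit3 show no overlap and little spread, at 20.4 to 21.2 and 13.8 to 14.9 RPKM on the left, while Derl3 is at 10.5 RPKM in library 3.

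Of the 4 genes downstream of Atf4 and Ddit3, Trib3 alone passed without library 3. It was higher, as were 40.9% of all genes in that fit. Trib3, a pseudokinase that restrains Atf4 and Ddit3, measured 3.63, 3.79 and 2.33 RPKM in CD133(high)CD71(low) cells, against 2.45 and 2.02 RPKM in CD133(positive)CD71(negative) cells. Library 3 lay between the CD133(positive)CD71(negative) libraries. Without it the log2 fold change was 0.55 (SE 0.11, limma adjusted p = 0.00268), and with it 0.38 (SE 0.20, limma adjusted p = 0.211). Chac1, which degrades glutathione, measured 8.34, 7.65 and 2.74 RPKM in CD133(high)CD71(low) cells, against 7.17 and 7.71 RPKM in CD133(positive)CD71(negative) cells, with library 3 far below the rest. Asns, the asparagine synthetase, measured 28.5, 30.8 and 26.6 RPKM in CD133(high)CD71(low) cells, against 36.1 and 30.2 RPKM in CD133(positive)CD71(negative) cells, and the groups overlapped. Sesn2, a stress-induced regulator of growth signaling, measured 2.67, 2.50 and 2.55 RPKM in CD133(high)CD71(low) cells, against 2.29 and 2.45 RPKM in CD133(positive)CD71(negative) cells. In the 4 numbered libraries, after median-of-ratios scaling, Trib3 was higher and Asns lower.

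The letters TGATG and AA with 1 base between them are the core of the element that Atf4 and its partners are known to bind (CARE). They stood in the promoter windows of 4 of the 35 genes, Trib3, Chac1, Asns and Herpud1, and of 4.51% of all 27025 genes. The stretches of Trib3, Chac1 and Asns are shown. Over all 5 libraries the groups of each of these genes, and of Herpud1, overlapped. In the numbered libraries Trib3 was higher under both scalings and Asns was lower with median-of-ratios scaling alone. Chac1 and Herpud1 passed under neither. Capitals mark the fixed letters, with 10 bases of GRCm38.p6 on either side.
Trib3 (chr2:152344029-152344056, plus strand): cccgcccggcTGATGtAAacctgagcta
Chac1 (chr2:119351039-119351066, minus strand): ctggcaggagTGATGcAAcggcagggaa
Asns (chr6:7693215-7693242, minus strand): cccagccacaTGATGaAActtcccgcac

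**Figure D4:**
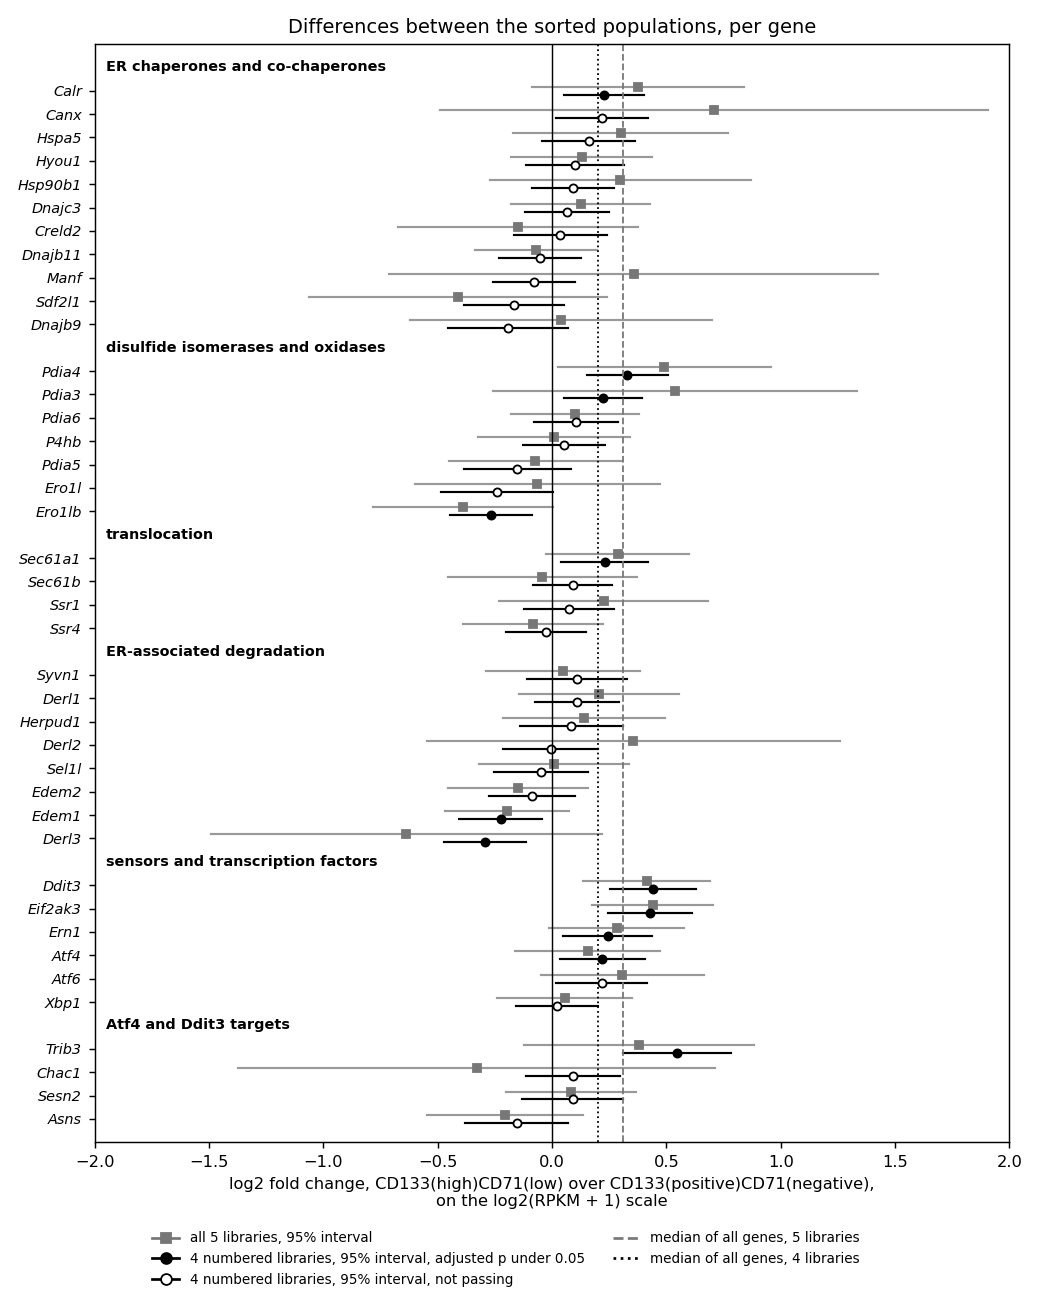
Log2 fold change of each of the 40 genes, CD133(high)CD71(low) over CD133(positive)CD71(negative), with 95% intervals, in units of log2(RPKM + 1); grey squares use all 5 libraries and circles the 4 numbered libraries, filled where the limma adjusted p was under 0.05. All grey estimates missed the threshold, 12 circles are filled, and most estimates lie to the left of the medians of all genes, 0.31 (dashed) and 0.20 (dotted).

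Library 3 departed from libraries 1 and 2 of its own group in both directions. For 5 of the 40 genes it lay at least 1 away from their mean on the log2(RPKM + 1) scale, as did 7.97% of all genes tested. Canx (1.47), Manf (1.31) and Derl2 (1.08) lay above, and Chac1 (-1.27) and Derl3 (-1.03) lay below. Libraries 1 and 2 differed by at least 1 for 0 of the 40 and for 10 of the 11769 genes tested. The standard deviation over the 40 genes was 0.56 for library 3 against the mean of libraries 1 and 2, and 0.11 for library 1 against library 2. Over all genes tested these were 0.64 and 0.18, both larger than over the 40. The acinar markers took 30.9% of the summed RPKM of the common genes in library 3, against 54.6% and 55.1% in libraries 1 and 2. The part of the acinar level, or of the other gene models of library 3, in these departures was not tested.

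**Figure D5:**
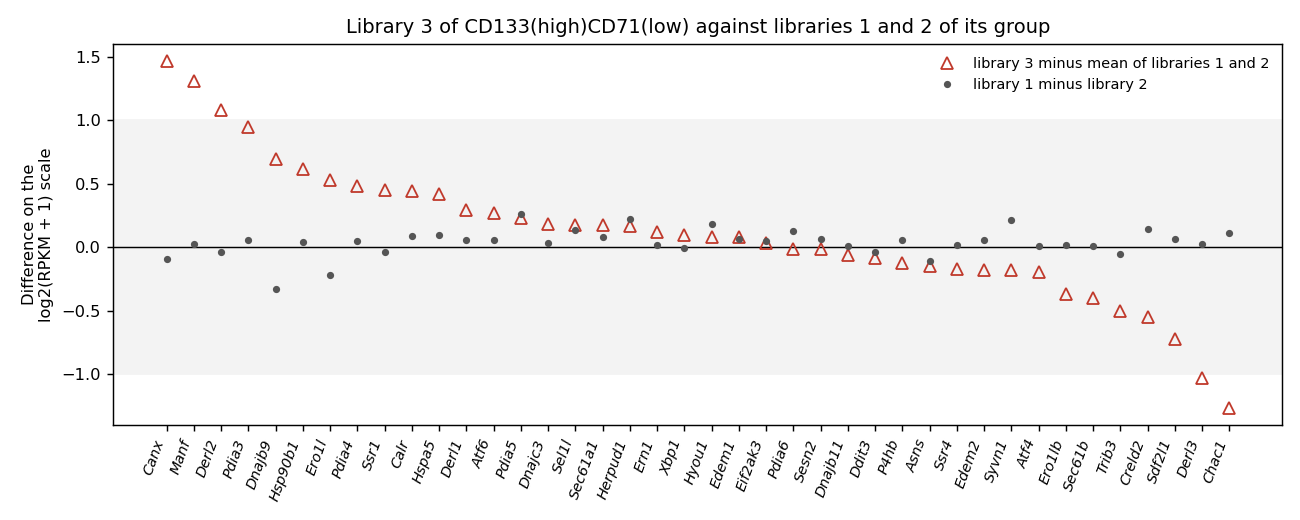
Difference on the log2(RPKM + 1) scale between CD133(high)CD71(low) library 3 and the mean of libraries 1 and 2 (triangles) and between libraries 1 and 2 (dots), for each of the 40 genes in order; the shaded band spans -1 to 1. Canx, Manf and Derl2 lie above the band and Derl3 and Chac1 below it, while all dots lie inside.

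Further genes of the ER, 126 of them present in all tables in lists chosen by role, gave few calls with all libraries. Of 119 tested, 2 were higher and 0 lower in limma, where 6.25% of all genes were higher and 7.22% lower. Tmx2, a membrane thioredoxin-like gene, measured 21.9, 20.9 and 24.1 RPKM in CD133(high)CD71(low) cells, against 14.5 and 15.6 RPKM in CD133(positive)CD71(negative) cells (log2 fold change 0.54, SE 0.12, limma adjusted p = 0.0433). Sel1l3, a relative of Sel1l, measured 14.5, 13.7 and 16.9 RPKM in CD133(high)CD71(low) cells, against 9.49 and 9.72 RPKM in CD133(positive)CD71(negative) cells (0.59, SE 0.13, limma adjusted p = 0.0442). Without library 3, 38 of the 119 were higher and 6 lower, where 40.9% of all genes were higher and 12.2% lower. With median-of-ratios scaling of those libraries 7 were higher and 19 lower, where 12.3% of all genes were higher and 18.1% lower. Their median was 0.19 with all libraries. In the list of other folding genes 1 of 32 was higher, in translocation and glycosylation 0 of 29, in degradation 1 of 23, and among other stress genes 0 of 35. At an unadjusted p under 0.05 in limma 6, 8, 3 and 8 genes of these lists were higher, and 1 stress gene was lower, against 36.7% of all genes in either direction. In both lists with no call the most abundant genes were Stt3b and Dad1, of the glycosylation enzyme, and Nupr1 and Tmbim6, a stress-induced and a stress-restraining gene. Stt3b measured 97.1, 100.4 and 149 RPKM in CD133(high)CD71(low) cells, against 65.1 and 67.9 RPKM in CD133(positive)CD71(negative) cells (limma adjusted p = 0.0743). Nupr1 measured 421, 441 and 151 RPKM in CD133(high)CD71(low) cells, against 465 and 423 RPKM in CD133(positive)CD71(negative) cells. Without library 3 Stt3b (log2 fold change 0.56) and Tmbim6 (0.46) were higher. Dad1 and Tmbim6 measured 63.3 to 86.0 and 249 to 287 RPKM in CD133(high)CD71(low) cells, against 72.2 to 76.7 and 180 to 186 RPKM in CD133(positive)CD71(negative) cells.

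Pdia2 and Erp27, picked after their values were seen and known from exocrine pancreas, had their lowest level in library 3. Pdia2, a pancreatic isomerase, measured 370, 376 and 241 RPKM in CD133(high)CD71(low) cells, against 427 and 384 RPKM in CD133(positive)CD71(negative) cells. Erp27, which binds misfolded protein and Pdia3, measured 78.6, 79.6 and 55.9 RPKM in CD133(high)CD71(low) cells, against 91.1 and 76.1 RPKM in CD133(positive)CD71(negative) cells. Neither passed with all libraries. Also picked in this way, the sensor relative Creb3l4 measured 5.35, 5.65 and 6.45 RPKM in CD133(high)CD71(low) cells, against 3.21 and 3.89 RPKM in CD133(positive)CD71(negative) cells. Its groups did not overlap, and it passed without library 3 (log2 fold change 0.52, SE 0.10, limma adjusted p = 0.00336). In that fit 40.9% of all genes were higher and 12.2% lower. Of the 35 genes tested in the list of Creb3l4, 11 were higher and 4 lower there.

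Markers of immune and endothelial cells were far lower in CD133(high)CD71(low) cells than in CD133(positive)CD71(negative) cells. The 33 acinar markers took 54.6%, 55.1% and 30.9% of the summed RPKM of the common genes in CD133(high)CD71(low) cells, against 62.2% and 58.6% in CD133(positive)CD71(negative) cells. With all libraries 0 of 33 passed in limma, and at an unadjusted p under 0.05 in limma 1 was higher and 0 were lower. Without library 3, where 12.2% of all genes were lower and 40.9% higher, 8 of the 33 were lower and 1 was higher. Ctrb1, a chymotrypsinogen and after an amylase the highest of them, measured 34829, 34727 and 15900.4 RPKM in CD133(high)CD71(low) cells, against 40861 and 38331 RPKM in CD133(positive)CD71(negative) cells. The 12 plasma and B cell markers summed to 26.9, 23.9 and 27.3 RPKM in CD133(high)CD71(low) cells, against 146 and 123 RPKM in CD133(positive)CD71(negative) cells, and 5 of 6 tested were lower. Plasma cells are antibody-secreting cells with a large ER. Igj, their immunoglobulin joining chain, measured 1.32, 1.49 and 3.63 RPKM in CD133(high)CD71(low) cells, against 111 and 85.1 RPKM in CD133(positive)CD71(negative) cells, and made up most of that sum in CD133(positive)CD71(negative) cells. Sdc1, a plasma cell surface marker that epithelia also express, lay higher in every CD133(high)CD71(low) library. It measured 18.9, 17.96 and 21.0 RPKM in CD133(high)CD71(low) cells, against 13.3 and 15.9 RPKM in CD133(positive)CD71(negative) cells, and was higher without library 3 (log2 fold change 0.32, limma adjusted p = 0.0222). The leukocyte markers summed to 48.6 to 90.6 RPKM in CD133(high)CD71(low) cells, against 1947 and 1909 RPKM in CD133(positive)CD71(negative) cells, and 17 of 18 tested were lower, with a median log2 fold change of -3.99. Endothelial, mesenchymal and endocrine markers were lower in 15 of 15, 7 of 10 and 5 of 11 tested, and duct markers higher in 11 of 16. These counts and those of the plasma and leukocyte markers are from all 5 libraries, where 7.22% of all genes were lower and 6.25% higher. The endocrine list went both ways without library 3, where 7 of 12 tested were lower and 2 higher. Its most abundant marker, Ins2, measured 1048, 1151 and 325 RPKM in CD133(high)CD71(low) cells, against 732 and 508 RPKM in CD133(positive)CD71(negative) cells. Ins2 was higher without library 3 (log2 fold change 0.85, limma adjusted p = 0.00142). Tnfrsf17, a receptor of plasma cells, was at 0 in every CD133(high)CD71(low) library, and no marker of the other lists was. The part of these cells in the levels of Derl3, Ero1lb, Edem1, Eif2ak3, Ddit3 or any other of the 40 genes was not tested. Removing the acinar markers and rescaling multiplies the other genes of a library by 1 factor. It moves their estimates in the same direction and cannot show the part of acinar cells in any gene. With that setting the 4 numbered libraries gave log2 fold changes of -0.43 for Derl3, -0.41 for Ero1lb and -0.36 for Edem1. Those of Trib3, Ddit3 and Eif2ak3 were 0.44, 0.31 and 0.29, and all 6 had a limma adjusted p under 0.05. The other 6 of the 12 calls in those libraries were lost (Calr, Pdia3, Pdia4, Sec61a1, Ern1 and Atf4), and 3 were gained, all lower (Ero1l, Manf and Sdf2l1). Over all 5 libraries 0 of the 40 passed with the acinar markers removed.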

How the data were processed

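The authors deposited 1 table per library, with 1 value for each gene symbol. The submitters' processing notes name Partek and mm10. Versions, aligner and annotation were not given in the sources used here. The unit had to be inferred, because no label gives it. The deposited values fit RPKM: for genes with 1 transcript in the GENCODE reference, values under 8 reads, multiplied by transcript length, came within 0.05 reads of whole multiples of a step in 53.2% to 69.1% of cases, against 10% by chance. FPKM would look alike. Too few were whole to recover counts, so no count test was run. A row of library 3 that names no gene (74.2 M alignments) was left out. The depth inferred for that library was lower, at 41.7 M reads, and the reason for the difference was not tested. The step finder and the model were tested on simulated data.

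Groups came from sample titles. Genes whose mean reached 1 RPKM in the libraries of a fit entered limma 3.58.1 (R 4.3.3) as log2(RPKM + 1), with group alone in the model, a trended empirical Bayes variance, 2-sided tests, Benjamini-Hochberg adjustment over all genes and a threshold of 0.05. Promoters and gene names came from RefSeq tables of GRCm38.p6, in which all 40 genes matched (Ero1l and Ero1lb as synonyms). The 40 genes, the lists and the elements were chosen with earlier results of these data known. Named are all 40 and, of each ER list, up to 3 genes higher and 3 lower with the smallest adjusted p, or the 2 most abundant if none passed. Of the 2 most abundant genes of each marker list only some are printed. Python 3.11.15, pandas 2.3.3, numpy 2.4.6 and matplotlib 3.10.9 made tables and figures.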

Additional observations from a re-analysis of the deposited data

How the results depend on the processing

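Of the 40 genes 0 passed with all 5 libraries, and 14 alternatives were tried. A pseudocount of 0.1 left all 40 uncalled. With no filter on low values 2 were higher (Eif2ak3 and Ddit3), where 958 of 16887 genes were. In that setting 1729 of all genes were lower, against 850 with the filter. A mean of at least 5 RPKM left 315 of all genes lower. Over 5 libraries, median-of-ratios scaling gave 1 gene of the 40 lower (Edem1), where 1141 of 11785 genes were lower and 227 higher. The median log2 fold change of the 40 was then -0.21. Quantile normalization gave 1 lower (Edem1), where 1037 of 11769 genes were lower and 841 higher, and a median of -0.13. Removal of the acinar markers called 0 of the 40, where 1030 of 11752 genes were lower and 315 higher, and gave a median of -0.14. The values as deposited gave a median of 0.11. Under these settings, in that order, estimates below or above 0 turned for 18, 12 and 13 of the 40, none of them called.

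Leaving out each library in turn gave 0 to 9 of the 40 higher and 0 to 3 lower, and 0 to 4785 of all genes higher and 154 to 1425 lower. The highest counts are those without library 3, and without any other library 0 of the 40 passed. In the 4 numbered libraries median-of-ratios scaling gave 2 of the 40 higher and 12 lower, 1446 of all genes higher and 2122 lower, and a median of the 40 of -0.14. Removal of the acinar markers there gave 3 higher and 6 lower, 2377 and 1756 of all genes, and a median of -0.056. Against the estimates from all 5 libraries, Manf was lower at -0.30 and -0.22 in these 2 settings and Dnajb9 at -0.40 in the first. The cause was not tested. Over all settings run, 4 genes kept a positive estimate (Pdia4, Eif2ak3, Ddit3 and Trib3) and 8 a negative one (Sdf2l1, Dnajb11, Ero1lb, Ssr4, Edem1, Edem2, Derl3 and Asns). The share of all genes that kept their sign was not counted.

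The labels do not say whether replicate numbers pair the libraries. Deviations of same-numbered libraries correlated at -0.0237 across 11769 genes. Only 2 pairs exist, so this cannot show whether libraries with the same number share a mouse or sort. With the number as a replicate block, 9 of the 40 were higher and 4 lower, Ero1l being the addition, with 5275 of all genes higher and 1543 lower. With 3 libraries against 2, and library 3 unlike the others, intervals are wide, and a gene that missed the threshold is not shown to be equal.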
